A study of Homo sapiens with 10 samples.

Results

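The genes described here encode the protein components of the mitochondrial ribosome. They were taken as the rows of the deposited count table whose GENCODE symbol begins with MRPL or MRPS followed by a digit and whose biotype is protein coding. This gave 76 of 55841 gene identifiers, 48 of the large subunit (MRPL) and 28 of the small subunit (MRPS), and they are called MRP genes below. MRPL45 and MRPS21, the remaining 2 of the 78 such genes in GENCODE 44, did not match an identifier by Ensembl number and were not analysed here. All 76 passed the filter on low counts and were among the 23552 genes tested.

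The study used RNA sequencing to compare a self-renewing subset of human embryonic stem cells with the culture it came from. The HHH subset (GCTM-2high CD9high EPCAMhigh) was sorted by surface staining as the EPCAM-richest fraction of the cells with most GCTM-2 and CD9, all antigens of pluripotent cells, while general libraries came from the unsorted population, which still holds the HHH cells. Every library was made from total RNA of the embryonic stem cell line named HES9 in the labels, grown in mTeSR1 medium on Matrigel, without genetic modification stated. Of the 5 libraries of each population, 2 belong to batch 1 and 3 to batch 2 as the labels name them, and with 1 line no spread between donors was measured. The labels do not say whether replicates were separate cultures, so p-values measure the spread between these libraries, which may be technical.

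The mitochondrial ribosome translates the mRNAs of the mitochondrial genome, which encode core subunits of the respiratory chain and of ATP synthase. Its rRNAs are transcribed inside the organelle, whereas all its proteins are encoded in the nucleus, made in the cytosol and imported. The MRP genes are therefore the nuclear share of a machine whose other share comes from mitochondrial DNA. The comparison of HHH with general libraries asks whether this nuclear share differed in the sorted subset, whose mitochondrial activity the study also measured.

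Total counts ran from 47242595 to 78503395 per library, and the lowest count of any MRP gene in any library was 470. Small nuclear and nucleolar RNAs took 2.71 to 4.97% of counts in batch 1 and 0.418 to 0.727% in batch 2, and the 10 most abundant genes took 18.2 to 23.7% and 7.65 to 11.5%. EPCAM, a sort antigen, was higher in HHH in the fit over both batches (log2 fold change 0.41, SE 0.08, edgeR adjusted p = 0.00645), and CD9 was 0.55 higher within batch 2 (adjusted p = 0.00851) and differed by -0.10 within batch 1 (adjusted p = 0.764). The 5 pluripotency markers summed to 3218 to 4345 CPM (counts divided by the TMM-scaled library size, on the usual CPM scale) in HHH and 3307 to 4777 in general libraries. Within batch 1 the sums were 3218 to 3252 in HHH and 3307 to 3797 in general libraries, and within batch 2 they were 4088 to 4345 and 4245 to 4777. Over both batches 1 of the 5 was called higher and 1 lower, beside 1.94% and 3.89% of all genes. Their log2 fold changes ran from -0.26 to 0.44. The 8 early neural markers summed to 4.39 to 10.4 CPM in HHH and 15.3 to 25.2 in general libraries. The 8 mesendoderm markers reached at most 2.59 CPM in any library, and the 6 fibroblast markers summed to 296 to 352 CPM in HHH and 271 to 290 in general libraries, with DCN and LUM at or near 0. These sums held genes that went both ways, with THY1 higher (log2 fold change 0.61) and COL1A1 lower (-0.94) among the 4 tested, whose median was -0.10. In bulk RNA, fewer cells of a type and less RNA per cell cannot be told apart, and the part of the neural and fibroblast marker differences in the results below was not tested.

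HHH batch 2 replicate 3 stood apart before any test. Against the mean of the general libraries of its batch, its median MRP gene was 0.47 higher on the log2 scale, while the other HHH libraries of batch 2 were 0.16 and 0.17 higher and the HHH libraries of batch 1 were 0.15 higher and 0.04 lower. The median of all genes tested lay between -0.01 and 0.02 in every library. The median MRP change within batch 2 and the number of MRP genes called are therefore given with and without HHH batch 2 replicate 3. The other results within batch 2 include that library.

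MRP genes took a small share of the counts, 0.338 to 0.442% per library. Together they held 0.362% ± 0.0156 of all counts in general libraries and 0.397% ± 0.0263 in HHH libraries (SD, n = 5 each). Within batch 1 the shares were 0.360% ± 0.0305 in general and 0.381% ± 0.0117 in HHH libraries (SD, n = 2 each), and within batch 2 they were 0.364% ± 0.00294 and 0.408% ± 0.0294 (SD, n = 3 each). The lowest HHH share in batch 2, 0.390%, was above the highest general share, 0.367%, whereas in batch 1 the ranges overlapped.

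**Figure D1:**
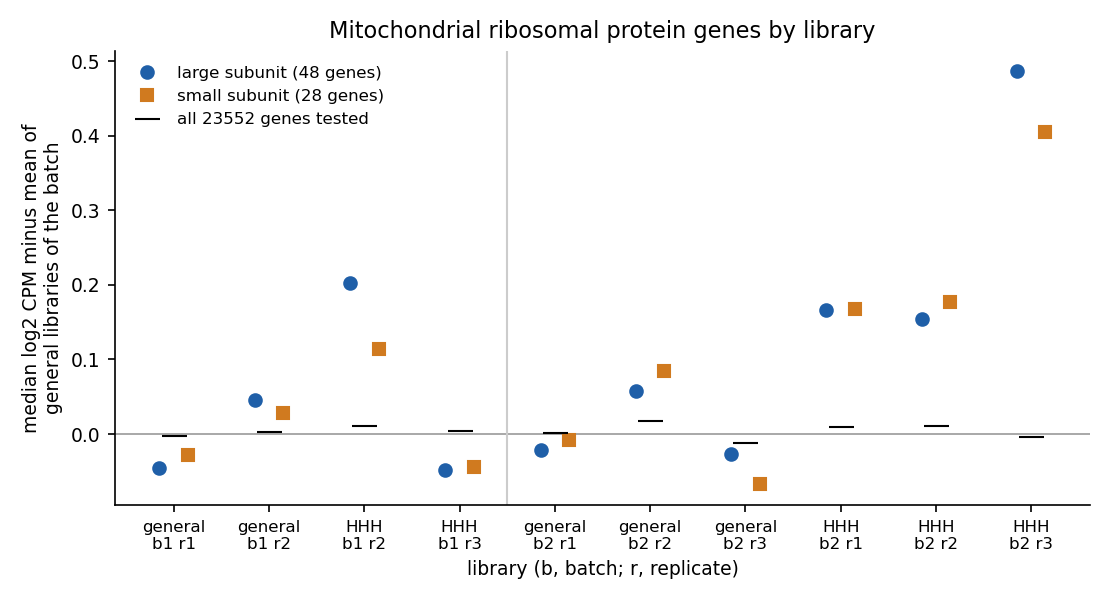
Median over the large subunit genes (blue circles), the small subunit genes (orange squares) and all genes tested (black dashes) of log2 CPM in each of the 10 libraries, minus the mean of the general libraries of the same batch. HHH batch 2 replicate 3 lies highest, at 0.49 for the large and 0.40 for the small subunit, and HHH batch 1 replicate 3 lies below 0 with both.

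Per unit length, MRP genes were more abundant than most genes tested. On the scale of the deposited log2 RPKM, averaged over the 10 libraries, their median was 4.25, against 1.48 for all genes tested. The medians of the large subunit (4.26) and of the small subunit (4.19) were close, although single genes ranged from 1.18 to 6.28 in the large and from 2.38 to 6.26 in the small subunit. MRPL51 (6.28), MRPL3 (5.93) and MRPL47 (5.72) were highest in the large subunit, and MRPL48 (2.12), MRPL22 (2.03) and MRPL46 (1.18) lowest. MRPS34 (6.26), MRPS16 (5.51) and MRPS26 (5.40) led the small subunit, and MRPS25 (2.89), MRPS5 (2.55) and MRPS11 (2.38) closed it. MRPS34 (31.2%), MRPL51 (27.6%) and MRPS25 (39.1%) share exonic bases with another gene, so part of their counts may belong to it.

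MRPS18A, MRPS18B and MRPS18C are paralogues related to 1 bacterial protein, and their products occupy different places in the ribosome, MRPS18A in the large subunit despite its symbol. Their deposited log2 RPKM levels were 4.71, 4.81 and 3.02, of which MRPS18A shares 50.9% of its exonic bases with RSPH9 and MRPS18C 40.2% with ABRAXAS1. None was called in the HHH comparison, with log2 fold changes of 0.15 (SE 0.07), 0.17 (SE 0.08) and 0.14 (SE 0.08) and adjusted p of 0.234, 0.277 and 0.316 (edgeR). MRPS30, the other protein with a small subunit symbol that the structure places in the large subunit, had a change of 0.05 (adjusted p = 0.737).

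Over both batches, MRP genes were slightly higher in HHH as a group, and few were called singly. The log2 fold change was positive for 73 of the 76 genes, with a median of 0.18 against 0.02 for all 23552 genes tested, of which 53.0% were positive. For the 7053 genes tested within the middle 90% of MRP levels (mean log2 CPM), the median was 0.04 and 60.3% were positive. At an adjusted p under 0.05 (edgeR quasi-likelihood test, Benjamini-Hochberg over all genes tested), 2 MRP genes were higher, MRPS34 and MRPL54, where 1.94% of all genes were called higher. None was lower, where 3.89% of all genes were called lower. None was lower at an unadjusted p under 0.05 or by DESeq2, where 10.8% and 5.21% of all genes were. Of the 7053 genes of like level, 178 were called higher and 231 lower. At an unadjusted p under 0.05, 40 MRP genes were higher, which is 52.6% of them, beside 10.1% of all genes. With the replicate number as a block, which treats libraries of the same batch and number as pairs, 5 were called higher (MRPS34, MRPL54, MRPL21, MRPL52 and MRPS23), beside 2.32% of all genes. In that fit general batch 1 replicate 1 and HHH batch 1 replicate 3 have no partner and do not inform the change. Removing HHH batch 1 replicate 3 alone, with no block, gave 18 called higher, beside 4.01% of all genes. The difference of the MRP median from the median of all genes stayed between 0.11 and 0.21 over the 24 settings fitted, and of the fits with 1 library removed, the one without HHH batch 2 replicate 3 gave the lowest MRP median, 0.12, with 67 genes positive. On the deposited log2 values as they stood the MRP median was 0.040 and that of all genes -0.12, with 50 MRP genes positive and 0 called.

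The promoters of 3 genes follow, to show what lies upstream of the genes that were called: MRPS34 and MRPL54, called over both batches, and MRPL52, the gene called within batch 2 whose promoter held most of the motifs searched. Each is the 250 bases before the start in RefSeq (GRCh38.p14), written 5′ to 3′ on the strand of the gene, which is chr16:1773135-1773384 (minus strand) for MRPS34, chr19:3762432-3762681 (plus strand) for MRPL54 and chr14:22829637-22829886 (plus strand) for MRPL52. Capitals mark matches to GCATGCGC, a core of sites of the respiratory regulator NRF1, to CCGGAAGT, a site of ETS factors such as GABPA, and to AAGATGGCG, a site of YY1, on either strand.
MRPS34: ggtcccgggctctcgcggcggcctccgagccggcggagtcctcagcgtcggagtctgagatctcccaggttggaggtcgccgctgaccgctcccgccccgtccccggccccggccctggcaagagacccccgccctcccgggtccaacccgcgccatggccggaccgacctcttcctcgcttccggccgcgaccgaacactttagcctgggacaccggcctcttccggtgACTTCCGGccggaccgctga
MRPL54: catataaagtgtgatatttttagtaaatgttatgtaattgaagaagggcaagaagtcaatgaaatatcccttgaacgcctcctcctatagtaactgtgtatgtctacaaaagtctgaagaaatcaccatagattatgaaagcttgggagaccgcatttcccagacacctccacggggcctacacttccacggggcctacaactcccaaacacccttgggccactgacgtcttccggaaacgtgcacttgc
MRPL52: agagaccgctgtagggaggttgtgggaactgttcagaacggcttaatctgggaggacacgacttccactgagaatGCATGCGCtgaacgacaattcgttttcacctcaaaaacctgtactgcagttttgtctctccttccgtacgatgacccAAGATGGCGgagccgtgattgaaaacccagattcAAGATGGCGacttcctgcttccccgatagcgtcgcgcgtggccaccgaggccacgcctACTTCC

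The MRPS34 window held 1 match, the ETS letters on the opposite strand beginning 20 bases before the start. The MRPL52 window held the NRF1 letters 175 bases before the start, the YY1 letters at 98 and again at 64 bases, and the ETS letters on the opposite strand at 6 bases, whose last letters run past the start. The MRPL54 window held none of these letters. Of the 76 MRP genes, 67 had a promoter in the RefSeq table, and 11 of these had more than 1 listed start, any of which could match. Over the full window of 250 bases before to 50 after the start, the YY1 letters were found for 13 of 67 MRP genes (19.4%) and for 3.27% of 15345 protein-coding genes, the ETS letters for 12 (17.9%) and 7.11%, and the NRF1 letters for 6 (8.96%) and 4.89%. Over all 27305 genes in the table, noncoding ones included, the shares were 2.14%, 4.95% and 3.68%. Each motif holds the letters CG, and the MRP windows had a median of 23 CG, against 14 over all genes in the table. The part of this in the motif shares was not tested. By subunit, the ETS letters were found for 10 of 41 large and 2 of 26 small subunit genes, and the YY1 letters for 8 and 5. No matches to different motifs overlapped in an MRP promoter. A match is a run of letters and was not measured as a bound site.

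MRPS34, a small subunit protein with no bacterial counterpart, had 79.2 and 94.0 CPM in the general libraries of batch 1 and 123 and 107 in HHH, and 75.96, 76.2 and 72.4 in the general libraries of batch 2 and 88.0, 89.2 and 98.0 in HHH. Every HHH library lay above every general library of its batch. The log2 fold change was 0.34 (SE 0.07, adjusted p = 0.0130), and MRPS34 passed in each of the 10 fits with 1 library removed, with a largest adjusted p of 0.0408. MRPS34 shares 31.2% of its exonic bases with EME2 on the opposite strand, and without strand in the counts such reads cannot be told apart. EME2, a DNA repair nuclease subunit, differed by -0.24 (SE 0.13, adjusted p = 0.324).

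MRPL54, a large subunit protein with no bacterial counterpart, had 18.3 and 20.3 CPM in general and 27.3 and 20.6 in HHH libraries of batch 1, and 13.5, 14.1 and 13.3 in general and 16.1, 16.5 and 20.9 in HHH libraries of batch 2. Its groups did not overlap in either batch, although in batch 1 the nearest values were 20.3 and 20.6. The log2 fold change was 0.36 (SE 0.10, adjusted p = 0.0440), and it passed in 2 of the 10 fits with 1 library removed, with a largest adjusted p of 0.124 without HHH batch 1 replicate 2.

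MRPL40 and MRPL21 came next and missed the threshold. MRPL40 had 12.045 and 14.2 CPM in general and 17.8 and 15.4 in HHH libraries of batch 1, and 10.1, 11.7 and 9.94 in general and 11.9, 12.8 and 14.9 in HHH libraries of batch 2 (log2 fold change 0.33, SE 0.09, adjusted p = 0.0511). MRPL21, the counterpart of bacterial L21, had 30.7 and 37.4 CPM in general and 47.7 and 35.9 in HHH libraries of batch 1, and 23.8, 23.5 and 24.8 in general and 29.1, 28.6 and 39.2 in HHH libraries of batch 2 (0.37, SE 0.11, adjusted p = 0.0532). Both were above in every HHH library of batch 2, and MRPL21 overlapped in batch 1. With the replicate block the adjusted p of MRPL21 was 0.0219, and that of MRPL40 was 0.0695.

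The lowest 3 MRP genes had negative values, none of them called. MRPS5, the counterpart of bacterial S5, had 40.2 and 39.2 CPM in general and 39.8 and 37.5 in HHH libraries of batch 1, and 43.5, 41.3 and 40.9 in general and 40.3, 38.8 and 37.7 in HHH libraries of batch 2 (log2 fold change -0.08, SE 0.06, adjusted p = 0.501). It was the only MRP gene with every HHH library of batch 2 below every general one, where 18.2% of all genes tested had that order. MRPS25 ran from 36.7 to 45.4 CPM in general and from 38.9 to 42.4 in HHH libraries (-0.01, SE 0.07, adjusted p = 0.964), with 39.1% of its exonic bases shared with NR2C2. MRPL10, the counterpart of the bacterial stalk protein L10, ran from 50.9 to 57.8 and from 49.4 to 56.5 CPM (-0.01, SE 0.07, adjusted p = 0.971). For MRPS25 and MRPL10 the groups overlapped in both batches and the sign changed under several settings.

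The batches differed in how far the MRP genes moved. Within batch 1 the median log2 fold change was 0.05, with 49 of 76 genes positive, against 0.01 for all genes tested. It was 0.11 (61 positive) with the replicate block, -0.04 (26 positive) without HHH batch 1 replicate 2, 0.15 (64 positive) without HHH batch 1 replicate 3, 0.02 (42 positive) without general batch 1 replicate 1 and 0.10 (56 positive) without general batch 1 replicate 2. Within batch 2 it was 0.27, with 73 of 76 positive, against 0.0043 for all genes and 0.06 for the 7053 genes of like level. In batch 2 the MRP median was above that of all genes in each of the 23 settings fitted, by 0.15 to 0.33. In batch 1 the difference ran from -0.04 to 0.15, and the MRP median itself was -0.37 on the deposited log2 values as they stood, where the median of all genes was -0.41. Of the 76 genes, 48 were positive in both batches, 25 were negative in batch 1 and positive in batch 2, 1 (MRPS2) was positive in batch 1 and negative in batch 2, and 2 (MRPS5 and MRPS25) were negative in both. The 2 comparisons share no library, and across the 76 genes their log2 fold changes had a Pearson r of -0.10, against 0.28 across all genes tested, a description over genes that share libraries within each batch.

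**Figure D2:**
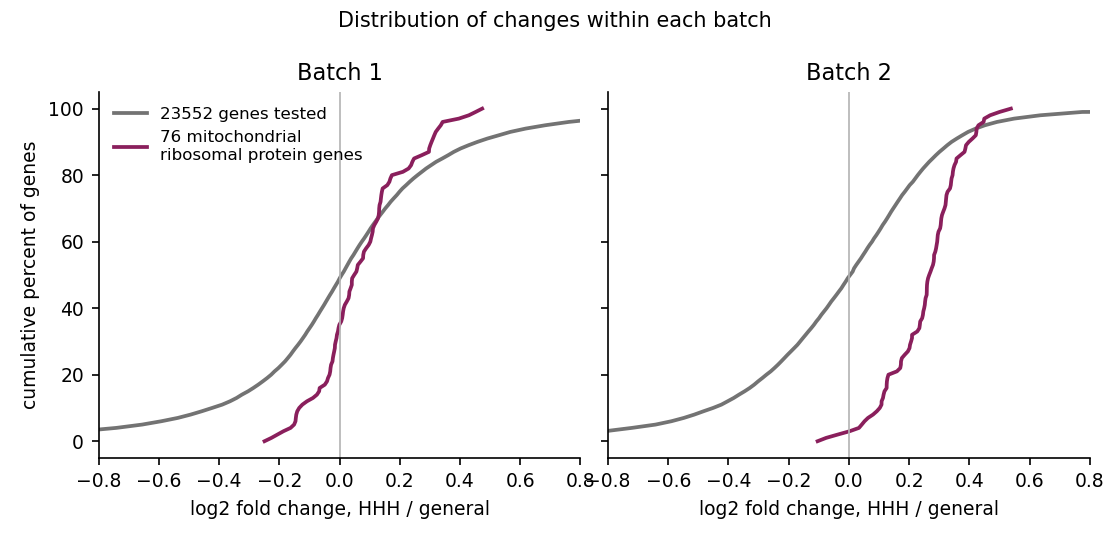
Cumulative percent of genes against the log2 fold change of HHH over general libraries within batch 1 (left) and batch 2 (right), for the 76 MRP genes (purple) and all 23552 genes tested (grey); the axis is limited to -0.8 to 0.8. The purple curve crosses 50% at 0.05 in batch 1 and at 0.27 in batch 2, and the grey curve near 0 in both.

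Within batch 1, every HHH library was above every general library for 16 MRP genes, where 22.5% of all genes tested had that order, and below for 8, where 21.0% of all genes did. Within batch 2 the corresponding numbers were 50 (34 large and 16 small), where 18.1% of all genes were above, and 1. The order held in both batches for 7 genes, MRPL2, MRPL12, MRPL24, MRPL40, MRPL54, MRPS31 and MRPS34, beside 3.93% of all genes tested.

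In batch 1, 1 MRP gene passed the test, MRPL23, higher in HHH, where 1.12% of all genes were called higher and 1.02% lower. MRPL23, the counterpart of a bacterial protein at the mouth of the exit tunnel, had 30.5 and 28.1 CPM in general and 39.7 and 40.0 in HHH libraries of batch 1, and 28.5, 32.6 and 30.5 in general and 31.6, 33.2 and 35.1 in HHH libraries of batch 2. The groups were apart in batch 1 and overlapped in batch 2, with log2 fold changes of 0.44 (SE 0.10, adjusted p = 0.0364) and 0.13 (SE 0.08, adjusted p = 0.352). MRPL41, a large subunit protein with no bacterial counterpart, had 24.9 and 24.2 CPM in general and 35.0 and 33.3 in HHH libraries of batch 1, and 18.9, 20.9 and 21.4 in general and 21.3, 21.1 and 26.5 in HHH libraries of batch 2. The change within batch 1 was 0.47 (SE 0.12, adjusted p = 0.0615). MRPS34, described above, came next by p in batch 1 (0.41, SE 0.11, adjusted p = 0.0728). The number called within batch 1 was 0 with the replicate block, which leaves 1 pair of libraries in that batch. With 1 library left out, it was 1 without replicate 2 of the general libraries of either batch, 2 without HHH batch 2 replicate 3, and 0 without any of the others.

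In batch 2, 12 MRP genes were called higher and 0 lower, where 3.83% of all genes were called higher and 5.65% lower. Of the 7053 genes of like level, 491 were called higher and 417 lower. The 12 were 7 large subunit genes (MRPL1, MRPL3, MRPL13, MRPL24, MRPL47, MRPL52 and MRPL58) and 5 small subunit genes (MRPS10, MRPS22, MRPS23, MRPS31 and MRPS35). No MRP gene was lower at an unadjusted p under 0.05 or by DESeq2, where 13.7% and 6.74% of all genes were. MRPL58 is a peptidyl-tRNA hydrolase built into the large subunit. MRPS22 shares 40.7% of its exonic bases with COPB2. By size, MRPS23 had the largest change of the 76 (0.54, SE 0.14, adjusted p = 0.0301), and MRPL1 followed (0.49, SE 0.13, adjusted p = 0.0366).

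The number of these calls moved with single libraries. Without HHH batch 2 replicate 3 none of the 76 was called and the median change within batch 2 was 0.15, with 72 genes positive. Without general batch 2 replicate 3 none was called either (median 0.24), and without general batch 2 replicate 1 the number was 1 (median 0.27). Of all genes, 1.27%, 0.641% and 1.36% were called higher in these fits, against 3.83% with all libraries. The number was 12 without HHH batch 2 replicate 1 and 9 without HHH batch 2 replicate 2, beside 2.09% and 2.62% of all genes. Without general batch 2 replicate 2 it was 7, beside 3.01%. Without replicate 2 or without replicate 3 of HHH batch 1 it was 23, beside 5.07% and 5.09% of all genes called higher. With the replicate block 27 were called, all 12 among them, beside 6.68% of all genes called higher in that fit.

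MRPS10, the counterpart of bacterial S10, had the smallest p within batch 2. It had 56.6 and 57.6 CPM in general and 59.0 and 54.3 in HHH libraries of batch 1, and 39.8, 41.7 and 36.1 in general and 49.5, 47.9 and 56.1 in HHH libraries of batch 2. The groups were apart in batch 2 (log2 fold change 0.38, SE 0.09, adjusted p = 0.0150) and overlapped in batch 1 (-0.01, SE 0.11, adjusted p = 0.974). MRPS35, a small subunit protein with no bacterial counterpart, had 77.8 and 75.5 CPM in general and 82.7 and 68.6 in HHH libraries of batch 1, and 58.8, 58.2 and 51.7 in general and 69.0, 71.6 and 89.8 in HHH libraries of batch 2 (batch 2 change 0.45, SE 0.11, adjusted p = 0.0198). MRPL52, likewise specific to mitochondria and with the promoter printed above, had 45.3 and 48.7 CPM in general and 54.3 and 46.6 in HHH libraries of batch 1, and 37.4, 35.8 and 37.2 in general and 44.001, 44.6 and 56.0 in HHH libraries of batch 2 (batch 2 change 0.39, SE 0.10, adjusted p = 0.0279). For both, HHH batch 2 replicate 3 was the highest library of its batch and the batch 1 groups overlapped.

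**Figure D3:**
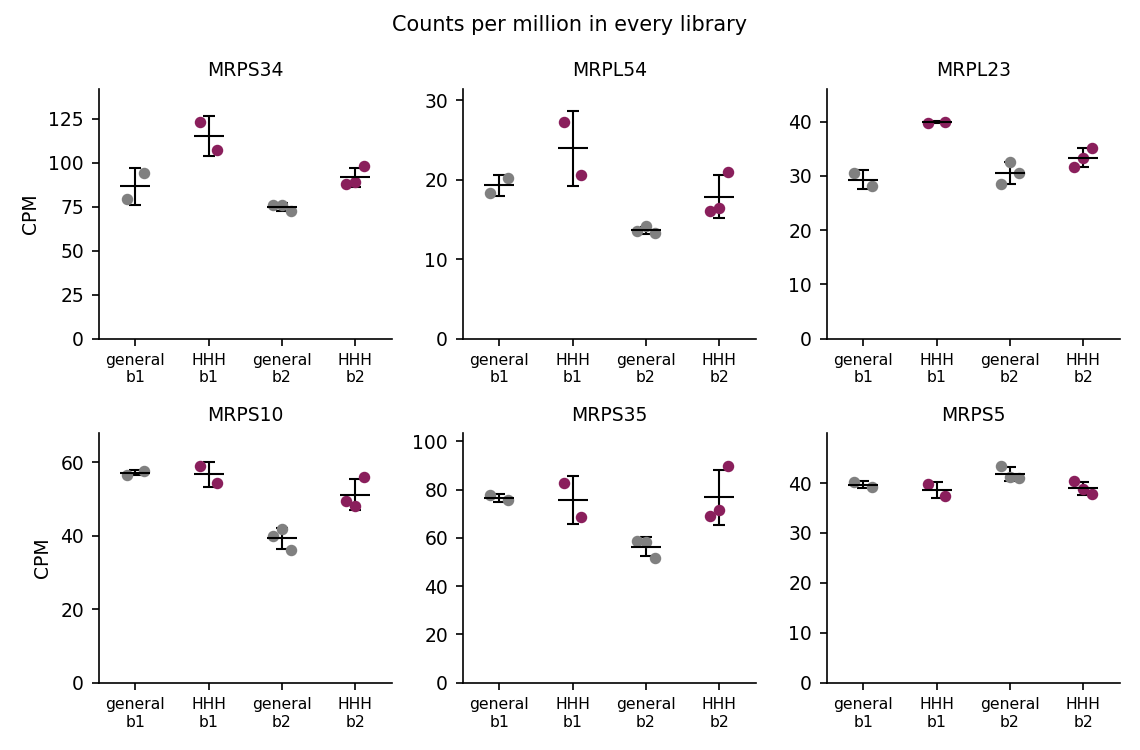
CPM of 6 MRP genes in every library (points, general grey and HHH purple), with the mean and SD of each group (bars; 2 libraries a group in batch 1, b1, and 3 in batch 2, b2); each axis starts at 0. Every HHH library was above every general one in both batches for MRPS34 and MRPL54, in batch 1 for MRPL23, and in batch 2 for MRPS10 and MRPS35, while MRPS5 stayed between 37.5 and 43.5 CPM.

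Whether the HHH change itself differed between batches was tested as an interaction of batch and population. No MRP gene was called, where 0.777% of all genes were called in either direction, and 17 MRP genes had an unadjusted p under 0.05, 15 with a larger and 2 with a smaller change in batch 2, beside 8.50% and 10.4% of all genes. DESeq2 called 1 MRP gene, and 322 genes with a larger and 506 with a smaller change among all genes. The median difference, batch 2 minus batch 1, was 0.22 against -0.0055 for all genes tested, and it was positive for 60 of 76 genes. It was 0.12 (51 positive) without HHH batch 2 replicate 3, 0.13 (53 positive) without HHH batch 1 replicate 3 and 0.15 (56 positive) without general batch 1 replicate 2. Scaling by library size alone moved the median of all genes to -0.12 and that of the MRP genes to 0.11. The gap between the batch medians is thus given as a description, with no single gene shown to differ between batches at this depth and number of libraries.

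The 4 smallest interaction p-values belonged to MRPL44, MRPS10, MRPL42 and MRPS2. MRPL44, which resembles RNase III, had 57.3 and 59.7 CPM in general and 52.4 and 46.1 in HHH libraries of batch 1, and 46.0, 42.4 and 43.7 in general and 49.5, 51.0 and 66.3 in HHH libraries of batch 2. All its HHH libraries were below in batch 1 and above in batch 2 (difference 0.59, SE 0.17, adjusted p = 0.112). MRPL42 had 151 and 145 CPM in general and 142 and 133 in HHH libraries of batch 1, and 101, 108 and 90.3 in general and 121, 114 and 132 in HHH libraries of batch 2, with the same reversal of order (difference 0.40, SE 0.14, adjusted p = 0.168).

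MRPS10, given above, differed by 0.39 (SE 0.14, adjusted p = 0.167). MRPS2, the counterpart of bacterial S2, had 46.4 and 50.6 CPM in general and 61.3 and 59.9 in HHH libraries of batch 1, and 39.8, 46.8 and 42.6 in general and 42.4, 43.2 and 37.8 in HHH libraries of batch 2. It went the other way, apart in batch 1 and overlapping in batch 2 (difference -0.39, SE 0.14, adjusted p = 0.169).

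**Figure D4:**
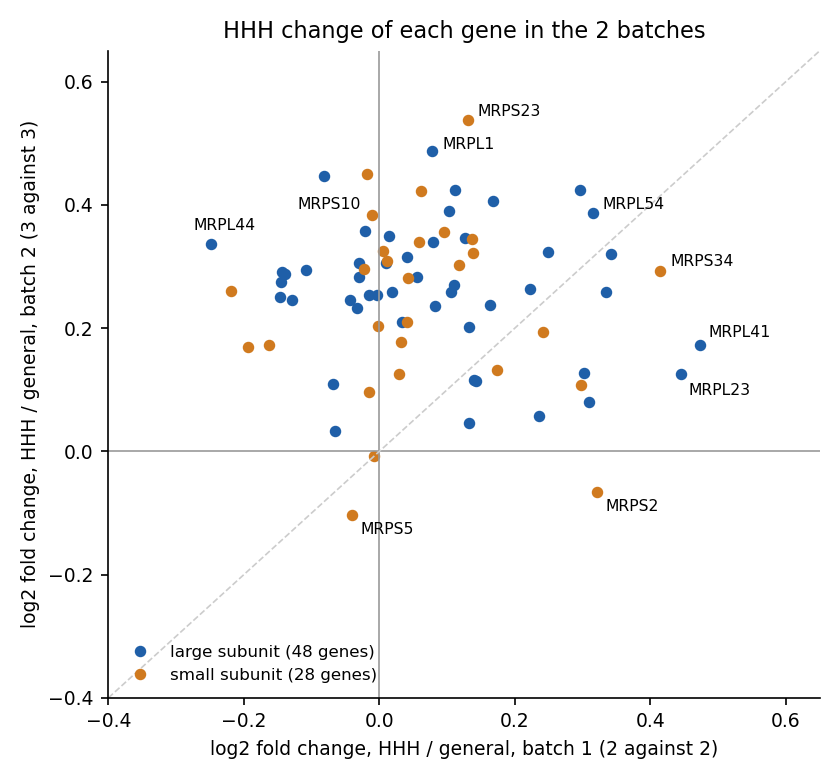
Log2 fold change of HHH over general libraries in batch 1 (x axis) and batch 2 (y axis) for each MRP gene, large subunit in blue and small subunit in orange; the dashed line marks equal change. Most points, 60 of 76, lie above the dashed line, and 25 lie in the upper left, negative in batch 1 and positive in batch 2.

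The large and small subunits moved alike. Over both batches the median log2 fold change was 0.18 for the large and 0.19 for the small subunit, with 47 of 48 and 26 of 28 genes positive and 1 called in each, or 3 large and 2 small with the replicate block. Within batch 1 the medians were 0.08 and 0.04, and within batch 2 both were 0.27, where the block called 15 large and 12 small subunit genes. Of all genes, 1.94% were called higher over both batches, or 2.32% with the block, and 6.68% within batch 2 with the block. The large minus small difference was -0.0049 over both batches, 0.04 within batch 1 and -0.0039 within batch 2, and it stayed between -0.03 and 0.09 over all alternatives, including the one that placed MRPS18A and MRPS30 in the large subunit. Between single libraries the same difference ran from -0.03 to 0.09, with an SD of 0.05, so the subunits differed by less than the spread between libraries.

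Genes with and without a bacterial counterpart were compared in the same way. Of the MRPS18 genes, all related to the same bacterial protein, MRPS18C was counted with a counterpart and MRPS18A and MRPS18B without. The 45 MRP genes with a bacterial counterpart had a median log2 fold change of 0.20 over both batches and 0 called, and the 31 without had a median of 0.17 and 2 called. With the replicate block these numbers were 1 (MRPL21) and 4. Of all genes, 1.94% were called higher over both batches, or 2.32% with the block, and 3.83% or 6.68% within batch 2. Within batch 1 the medians were 0.08, with 32 genes positive, and 0.0098, with 17 positive, and within batch 2 they were 0.26 and 0.29, with 6 called in each group, or 16 and 11 with the block. The median differences between batches were 0.19 and 0.29, and no test compared the groups.

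GC content of the transcripts moved with the changes, in opposite directions in the batches. Across the 76 MRP genes the Spearman rho of the log2 fold change with the GC of the longest transcript was 0.63 within batch 1 and -0.24 within batch 2, against 0.23 and -0.36 across 22138 genes tested with a GC value. These are descriptions over genes that share libraries. The 33 MRP genes with a GC of at least 50% had a median change of 0.14 in batch 1 and 0.25 in batch 2, and the 43 below 50% had 0.01 and 0.27. MRPL23 (61.2% GC), MRPL41 (66.7%) and MRPS34 (64.5%), the leading genes of batch 1, all lay in the upper range, whereas MRPS10 (41.5%), MRPS35 (40.1%) and MRPL52 (44.9%), the leading genes of batch 2, lay in the lower.

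At high GC in batch 2 the MRP genes stayed above all genes, although their changes were also smaller between 60 and 65% GC. In the bins from 30 to 60% GC their medians in batch 2 were 0.26 to 0.30. Between 60 and 65% GC, the 10 MRP genes had a median change of 0.12 in batch 2, where the 2075 genes tested in that range had -0.18, and in batch 1 the medians were 0.31 and 0.12. With a smooth GC trend removed from each library, the median MRP change was 0.07 in batch 1 and 0.28 in batch 2. The numbers called higher were then 0 and 22, and 8 over both batches, beside 0.815%, 3.94% and 3.43% of all genes. The part of GC in the difference between batches was not tested further.

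**Figure D5:**
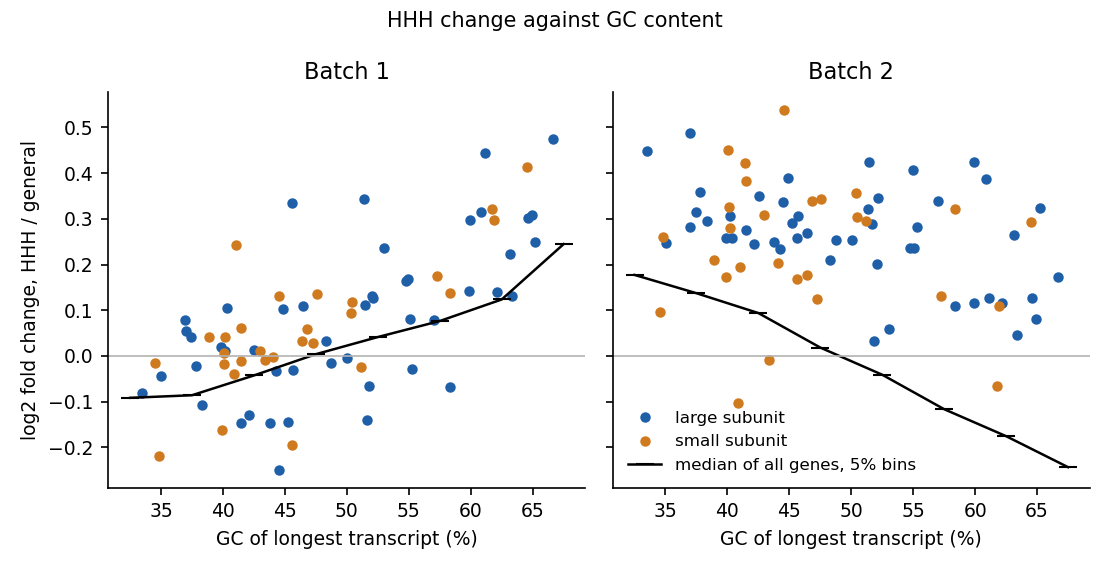
Log2 fold change of HHH over general libraries against the GC percent of the longest transcript, within batch 1 (left) and batch 2 (right), for large (blue) and small (orange) subunit genes; the black line joins the medians of all genes tested in bins of 5% GC. The MRP genes rise with GC in batch 1, as the black line does, while in batch 2 the black line falls to -0.24 in the last bin and nearly all MRP genes stay above 0.

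MRP genes also differed between the general libraries of the 2 batches, more than between HHH and general libraries. In the general population of batch 2, 47 of 76 MRP genes were called lower than in batch 1 and 0 higher, where 20.8% of all genes were called lower and 20.9% higher, and the median difference was -0.41 against 0.02 for all genes. Of the 7053 genes of like level, 2266 were called lower and 1441 higher, with a median of -0.08. Scaling by library size alone moved the median of all genes to 0.42 and the MRP median to -0.01, with 16 MRP genes called higher and 7 lower beside 47.1% and 5.38% of all genes, so the sign of single genes rests on the scaling. Relative to the median of all genes, the MRP median was lower by 0.39 to 0.46 in all 19 settings fitted. MRPL49 (-0.95, SE 0.13, adjusted p = 8.25e-05), MRPS12, the counterpart of bacterial S12 (-0.94, SE 0.11, adjusted p = 2.97e-05), and MRPL14 (-0.89, SE 0.12, adjusted p = 9.75e-05) had the largest differences on the TMM scale. Culture, sequencing and other properties of a batch cannot be told apart here.

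MRP genes can share reads with other genes. Of the 76, 39 shared no exonic base with another counted gene and 15 shared at least 20%. The 61 below that limit had a median log2 fold change of 0.19 over both batches and 0.28 within batch 2, with 1 and 11 called, and the 15 at or above it had 0.17 and 0.20, with 1 call in each comparison. With the replicate block, 4 and 23 of the former and 1 and 4 of the latter were called. Of all genes, 1.94% and 3.83% were called higher in these comparisons, or 2.32% and 6.68% with the block. MRP genes also have processed pseudogenes, of which 70 had an identifier and 9 were tested, and all of them together held counts equal to 1.23 to 1.48% of the counts of the MRP genes.

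The remaining genes of mitochondrial translation were taken from lists chosen by function. For these lists, 1.94% of all genes were called higher over both batches, or 2.32% with the replicate block. Within batch 1 the share was 1.12%, and within batch 2 it was 3.83%, or 6.68% with the block. Of 7 mitoribosomal protein genes with other symbols or names that had an identifier (MRPL58 is on this list too), 2 were called higher over both batches and none lower. GADD45GIP1, a large subunit protein, was higher by 0.42 on the log2 scale (SE 0.09, adjusted p = 0.0155) and AURKAIP1, a small subunit protein, by 0.37 (SE 0.10, adjusted p = 0.0469). Both were also called within batch 1 (0.62 each, adjusted p = 0.0240 and 0.0237) and not within batch 2, where MRPL58 and DAP3, a small subunit protein, were (DAP3 0.29, SE 0.08, adjusted p = 0.0398). The list's median was 0.16 over both batches, -0.04 within batch 1 and 0.29 within batch 2. With the replicate block, the number called over both batches was 1 (GADD45GIP1), that within batch 1 was 1 (AURKAIP1), and that within batch 2 was 3 (DAP3, GADD45GIP1 and MRPL58).

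None of 25 assembly factors was called over both batches (median 0.11, 19 positive), and the smallest p belonged to TFB1M, which methylates the small rRNA (0.22, SE 0.09, adjusted p = 0.167), and FASTKD2, which binds the large rRNA (0.22, SE 0.10, adjusted p = 0.211). Over both batches 3 of this list had an unadjusted p under 0.05, all higher, where 10.1% of all genes were higher at that threshold. Within batch 2, 2 were called, FASTKD2 among them (0.40, SE 0.10, adjusted p = 0.0242). None of 16 translation factors was called over both batches (median 0.07, 10 positive), and with the block 2 were, SLIRP and TACO1. At an unadjusted p under 0.05, 5 of the 16 were higher, beside the same 10.1% of all genes. SLIRP, which binds mitochondrial mRNAs (0.35, SE 0.10, adjusted p = 0.0662), and TACO1, a translational activator (0.29, SE 0.09, adjusted p = 0.0752), had the smallest p. Of 20 mitochondrial aminoacyl-tRNA synthetases and amidotransferase subunits (median 0.03), 1 was called higher, MARS2, which charges methionine (0.30, SE 0.08, adjusted p = 0.0375), and CARS2, which charges cysteine, came next (0.19, SE 0.06, adjusted p = 0.0844).

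The mRNAs of the mitochondrial genome went the other way. All 13 mRNAs had negative log2 fold changes over both batches and in each batch, with medians of -0.36, -0.31 and -0.43. Over both batches 2 were called lower, or 7 with the replicate block, beside 3.89% and 4.63% of all genes. Within batch 2, 1 was called lower, or 8 with the block, beside 5.65% and 8.95% of all genes. MT-ND1 fell by 0.41 (SE 0.10, adjusted p = 0.0233) and MT-ND4 by 0.48 (SE 0.13, adjusted p = 0.0375), both encoding subunits of complex I. The rRNAs of the mitochondrial ribosome, MT-RNR1 (-0.38, SE 0.25, adjusted p = 0.404) and MT-RNR2 (-0.37, SE 0.19, adjusted p = 0.292), had values of the same sign and were not called. With the block the median of these rRNAs was -0.21 over both batches and -0.35 within batch 2. Within batch 1, where the block leaves 1 pair, it was 0.22, against -0.46 without the block. The share of counts from the mitochondrial genome was 0.267 to 0.407% in general and 0.234 to 0.334% in HHH libraries.

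Among 14 regulators of mitochondrial genes, 13 were positive over both batches (median 0.10) and 1 was called, MYC (0.45, SE 0.08, adjusted p = 0.00261), a transcription factor of growth and ribosome production, joined with the block by TFB2M, a mitochondrial transcription factor. Within batch 1, 7 of the 14 were positive (median -0.01) and 0 were called. Within batch 2, 10 were positive (median 0.20) and 3 were called higher, or 4 with the block, beside 3.83% and 6.68% of all genes. ESRRA, a nuclear receptor of energy metabolism, had the next smallest p (0.23, SE 0.07, adjusted p = 0.0544). The factors whose motifs were searched above had log2 fold changes of 0.01 (NRF1, adjusted p = 0.947), 0.0051 (GABPA, adjusted p = 0.981) and -0.0052 (YY1, adjusted p = 0.980), and were not called.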

How the data were processed

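Bulk RNA-seq libraries of the embryonic stem cell line were analysed from 2 deposited tables. One holds fragment counts per Ensembl gene, deposited by the authors without normalization. The other holds a score made by the authors, log2 RPKM after TMM scaling, from which a batch term had been subtracted (the batch means are equal for genes with a value in every library), so it was used for levels and as an alternative only. The submitters' processing notes name CASAVA 1.8.2, R 3.2.2, limma 3.26.9 and GRCh37. The aligner and counter are not given in the sources used here. Identifiers were matched to GENCODE 44 by Ensembl number (49395 of 55841), and counts on unmatched identifiers (7.44 to 20.3% per library) stayed in. Counts were tested with edgeR 4.0.16 in R 4.3.3: filterByExpr with a minimum count of 10, TMM scaling, quasi-likelihood F tests, batch as an additive term or 1 mean per batch and population, all 10 libraries, two-sided, Benjamini-Hochberg over 23552 genes, called at an adjusted p under 0.05. The SE is the log2 fold change divided by the root of F. The test over both batches was also run on simulated counts with known changes, the same in both batches. Changes within 1 batch were not simulated.

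No 2 libraries agreed within sampling noise (chi-square per degree of freedom of 6.35 or more). The block took libraries of the same batch and replicate number as pairs, which the labels do not state. In batch 2 the deviations of these pairs from the group means correlated at 0.113 to 0.239, and those of unlike numbers at -0.126 to -0.00512. Deviations sum to 0 within a group, which lowers the unlike pairs. In batch 1, with 2 libraries a group, only 0.113 or -0.113 could arise, and general replicate 1 with HHH replicate 3 also gave 0.113. The correlations therefore cannot settle whether the numbers mark pairs. The block was given as an alternative beside the counts of MRP genes and of the mitochondrial translation lists that it moved. Alternatives used DESeq2 1.42.0 and limma 3.58.1, other scalings, filters, thresholds and each library left out. Precision was limited by the number of libraries rather than by depth, since 1 count was at most 0.0229 CPM. The members and lists were chosen with earlier results of these data known. Named genes were up to 8 called per direction (or the 4 with the smallest p), 4 by interaction p, 3 by p within each batch, the 3 highest and lowest levels per subunit, the MRPS18 genes, and 2 by p from each other list. MRPS30, DAP3, TFB2M, MRPS23, MRPL1, MRPL49, MRPS12, MRPL14 and the genes that share exons fall outside this rule and were named after their values were seen, as was the promoter of MRPL52.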

Additional observations from a re-analysis of the deposited data

Results flagged for a closer look

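Over 64 groups of 5 libraries, 4 had an extreme library whose gap to its neighbour, as a share of the range of the group, was above Dixon's 95% critical value of 0.71, where chance gives about 5%. MRPL48 in HHH libraries had a gap share of 0.788, set by 24.6 CPM in HHH batch 2 replicate 3 against 18.1 to 19.5 in the others. The same library set the gap share of 0.715 for the percent of counts on MRP genes (0.442% against 0.372 to 0.392%) and of 0.712 for the percent on large subunit genes (0.268% against 0.224 to 0.237%) in HHH. In general libraries, the percent of counts on small subunit genes had a gap share of 0.887, set by batch 1 replicate 1 with 0.135% against 0.147 to 0.148%. The gap share for HHH rests partly on libraries of 2 batches taken as 1 group, and the cause of these values was not tested.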

How the results depend on the processing

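With 2 or 3 libraries a group in a batch, counts of called MRP genes moved more than the medians. Over both batches the number higher, 2, was 1 with upper quartile scaling, library size only, voom or overlapping genes left out, 4 without small RNAs and mitochondrially encoded genes, 15 without a filter, 7 with DESeq2, 5 with the replicate block, 8 with the GC trend removed, 24 with both, 0 without a batch term, and 1 to 18 with 1 library left out (18 without HHH batch 1 replicate 3, 6 without general batch 1 replicate 2). Within batch 1 the number, 1, was 3 without a filter or with DESeq2, 0 with the block, with the GC trend removed or with each batch fitted alone, and 0 to 2 with 1 library left out. Within batch 2 the number, 12, was 3 by library size only, 33 without a filter, 26 with DESeq2, 27 with the block, 22 with the GC trend removed, and 0 to 23 with 1 library left out (7 without general batch 2 replicate 2), where the median ran from 0.15 to 0.33. Over both batches, the share of all genes called higher was 2.4% without a filter and 3.19% with DESeq2. It was 5.27% with the GC trend removed and the block, and 4.01% without HHH batch 1 replicate 3. Within batch 1 it was 1.81% without a filter and 1.86% with DESeq2. Within batch 2 it was 1.3% by library size only, 4.16% without a filter and 6.28% with DESeq2. The interaction count, 0, was 2 without a filter and 1 with DESeq2, beside 2.64% and 3.52% of all genes. The batch count in the general population, 47, was 23 by library size only and 30 to 51 with 1 library left out (30 without general batch 1 replicate 2). At an adjusted p under 0.01, or with a fold change over 1.5, the counts over both batches and within batches were 0, and the batch count was 13 with that fold. On the deposited log2 values as they stood, counts were 0 over both batches (median 0.040), 16 within batch 1, all lower (median -0.37), and 0 within batch 2. The interaction count was 32, all higher. In these fits 34.7% of all genes were called lower within batch 1, and 24.7% were called higher for the interaction. After centring each library, an alternative chosen after seeing the data, the first 3 counts were 1, 0 and 0. MRPS25 turned positive without a filter (0.00050), after centring (0.016) and at the upper end of the range with 1 library left out (-0.052 to 0.025). MRPL10 turned positive without a filter (0.0023), with the block (0.034), the GC trend removed (0.018), both (0.072), after centring (0.015) and at the upper end with 1 library left out (-0.032 to 0.021). The interaction of MRPS2 was 0.073 on the deposited values. The block left the interaction count at 0. Causes were not tested.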
